A study of Homo sapiens with 3 samples.

Results

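The regions described here are the strong GoldCLIP-seq peaks that RPL22 and its paralog RPL22L1 had in common. A peak was called strong when its deposited score was 300 or more. Flat peaks, which are 30 bases wide with the summit given at base 15, were left out. The set holds the RPL22 peaks with scores from 300 to below 10000 that shared at least 1 base with a strong RPL22L1 peak, on chromosomes 1 to 22 and X. There were 1607 such peaks among the 154000 of the RPL22 list, and they were paired with 1611 of the 254413 peaks of the RPL22L1 list. The members were thus chosen by the scores of both lists and by their overlap, and these values are given as a description only.

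The peaks came from HCT116, an established human colorectal carcinoma line grown in McCoy's 5a medium with fetal bovine serum. The groups were cells with the genotypes HaloTag, RPL22 -HaloTag and RPL22L1HaloTag, with 1 library each and no replicates. In GoldCLIP the HaloTag binds covalently to a resin, so crosslinked RNA can be washed under harsh conditions and sequenced. The HaloTag library was not analysed here, and whether shared peaks also occur in it was not tested. How the fusions were introduced, and whether the lines are single clones, is not given in the sources used here.

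RPL22 and RPL22L1 are closely related proteins of the large ribosomal subunit, each of which can take the same place in the ribosome. Both are also known to bind RNA outside the ribosome, and RPL22 is known for binding a small viral RNA through a stem-loop. Loss of RPL22 is known to raise RPL22L1, and RPL22 mutations are frequent in colorectal tumours with mismatch repair defects, the class to which HCT116 belongs.

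Short stretches at shared summits are shown first, for the members whose bases the RefSeq promoter and miRNA tables of GRCh38 held. Of the members, 25 had their 30 bases around the RPL22 summit inside a RefSeq promoter window, and 11 of these lay in the window of their own protein-coding gene. The examples below lie within 30 bases of a gene start, and each is printed on the strand of its gene. Capitals run from the RPL22 summit to the RPL22L1 summit, so that a short run in capitals means that both summits nearly coincide. In SKP1 the RPL22L1 summit lies 2 bases past the end of the printed stretch.
RPS6: gtggcgcctcggagGCgttcagctgcttca
RPS19: cgttccctttcccctGGCTGGCAGcgcgga
RPS14: gtgtggagtctgGAGacgacgtgcaggtag
RPL34: ccggggacgttgtctGCAGGtatggatgtt
H1-2: tgccacttgtacccGAgtttttgattctca
H2AC7: gtcttcattgcTTAAcatcgtttttaagaa
SKP1: cgtcttcggtttttCTCTTCCTTCGCTAAC
MAGED1: tcacgccatcgttgcTGCCTTCTTCGTCAA

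RPS6, RPS19, RPS14 and RPL34 encode ribosomal proteins, H1-2 and H2AC7 encode histones, SKP1 encodes a subunit of SCF ubiquitin ligases, and MAGED1 encodes a protein of the MAGE family. The RPS6 peak at chr9:19380190-19380233 had an RPL22 score of 5091 and an RPL22L1 score of 1870. Its summit lay 23 bases from the gene start and 1 base from the RPL22L1 summit. The summits of RPS19, RPS14 and RPL34 lay 11, 25 and 21 bases from the start, and those of H1-2 and H2AC7 lay 24 and 28 bases from it. The distance between both summits was 8 bases in RPS19, 2 in RPS14, 4 in RPL34, 1 in H1-2 and 3 in H2AC7. It was longer in SKP1 and MAGED1, at 17 and 14 bases.

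Peaks at transfer RNA (tRNA) genes formed a group of their own, and 2 of them had their sequence in the tables. Capitals here mark a match to GGTTCGA, which is found in the B box, an internal promoter element that RNA polymerase III uses at tRNA genes and that encodes the T loop. Both strands were searched, and the match lay on the minus strand of both loci.
TRF-GAA1-5: cctGGTTCGAtcccgggtttcggcagctac
TRG-CCC2-2: cgacccgGGTTCGAttcccgggcggcgcac

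Across 34935 RefSeq promoter windows, the middle 30 bases held such a match on either strand in 26, or 0.0744%. That share covers gene promoters and not tRNA genes, of which the B box is a regular part. It therefore cannot show whether the match is particular to shared peaks, and this was not tested. TRF-GAA1-5 is a phenylalanine tRNA gene, and its peak at chr13:94549634-94549665 had an RPL22 score of 3950 and an RPL22L1 score of 5322. TRG-CCC2-2 is a glycine tRNA gene, and its peak at chr16:636738-636769 scored 9154 and 8705. Both pairs of summits lay 1 base apart. In TRF-GAA1-5 only the last of the marked bases lay inside the RPL22 peak, while in TRG-CCC2-2 all of them did.

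A miRNA hairpin shared bases with 5 members, and the mature miRNAs reached by these peaks are shown with the seed, bases 2 to 8, in capitals. All 6 seeds differed from each other.
hsa-miR-10a-5p: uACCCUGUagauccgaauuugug
hsa-miR-301a-5p: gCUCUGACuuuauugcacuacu
hsa-miR-10397-3p: cAUAGAUCucgucgcuuacuggga
hsa-miR-31-5p: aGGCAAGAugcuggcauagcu
hsa-miR-222-5p: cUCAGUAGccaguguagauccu
hsa-miR-222-3p: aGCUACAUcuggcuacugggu

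The MIR10A peak at chr17:48579897-48579958 covered the mature sequence, but the summits of both lists lay at base 4 of the hairpin, 18 bases before the first base of miR-10a-5p. The summits at MIR301A lay before the hairpin, the RPL22 summit by 6 bases and the RPL22L1 summit by 5. At MIR31 they also lay before the hairpin, by 16 and 17 bases. The RPL22 peak at MIR222 spanned both arms, with the RPL22 summit at base 17 of the hairpin and the RPL22L1 summit at base 73, within miR-222-3p. At MIR10397 the summits lay within the mature sequence, at its bases 18 and 21. Scores of these 5 peaks ran from 506 at MIR10A to 1091 at MIR222 in the RPL22 list. The peaks near MIR301A and MIR31 lay in the longer genes SKA2 and MIR31HG.

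The members were set beside the other strong RPL22 peaks. Of 3271 strong RPL22 peaks, 1607 were shared with RPL22L1, which is 49.1%, a share that the rule itself defines. Among all RPL22 peaks on the same chromosomes 5.27% shared a base with a strong RPL22L1 peak, and among RPL22 peaks that were not flat and scored at least 100 and below 300 it was 20%. Read from the other side, 8.45% of 19068 strong RPL22L1 peaks met a member. The members had RPL22 scores from 300 to 9981 with a median of 514, and quartiles of 383.5 and 928. Strong RPL22 peaks that were not shared had a median of 411. The paired RPL22L1 peaks had scores from 300 to 30389 with a median of 770. Taking from the RPL22L1 list only as many top-ranked peaks as the RPL22 list has at 300 or more gave 818 members, 25.01% of strong RPL22 peaks, and a median summit distance of 2 bases. The scores of each list are on a scale of their own, so an RPL22 score is never set against an RPL22L1 score as a level.

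Sharing was more frequent among higher RPL22 peaks. With scores from 300 to below 500, 767 of 1938 peaks were shared, or 39.6% (37.4 to 41.8%, exact Clopper-Pearson 95% interval, as are the intervals of shares that follow). The share was 57.3% (53.8 to 60.7%) from 500 to below 1000. It was 66.3% (61.1 to 71.2%) from 1000 to below 3000 and reached 86.8% (80.3 to 91.7%) at 3000 or more. These 4 intervals do not overlap, but no test was run. The scores and the overlap both entered the rule, so these shares are a description. The intervals cover counting error only and not the spread between libraries, which 1 library per group cannot show. Of the 1664 strong RPL22 peaks that were not shared, 821 overlapped no RPL22L1 peak. Another 496 overlapped a peak below 300 that was not flat, and 347 overlapped flat peaks only.

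Peaks just inside and just outside the score limits are given once. CEP57 and H2AX held members with the lowest RPL22 score, 300, while peaks in CHEK1 and TMEM214 lay 1 below it and were left out. On the RPL22L1 side, pairs in ARHGEF12 and CCNY scored 300 and 301 and were kept, while pairs in NCBP3 and PYGL scored 298 and 297 and were left out. At the upper limit a SNORD12 peak with an RPL22 score of 10288 lay just outside. In all, 148 RPL22 peaks scored 10000 or more.

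**Figure D1:**
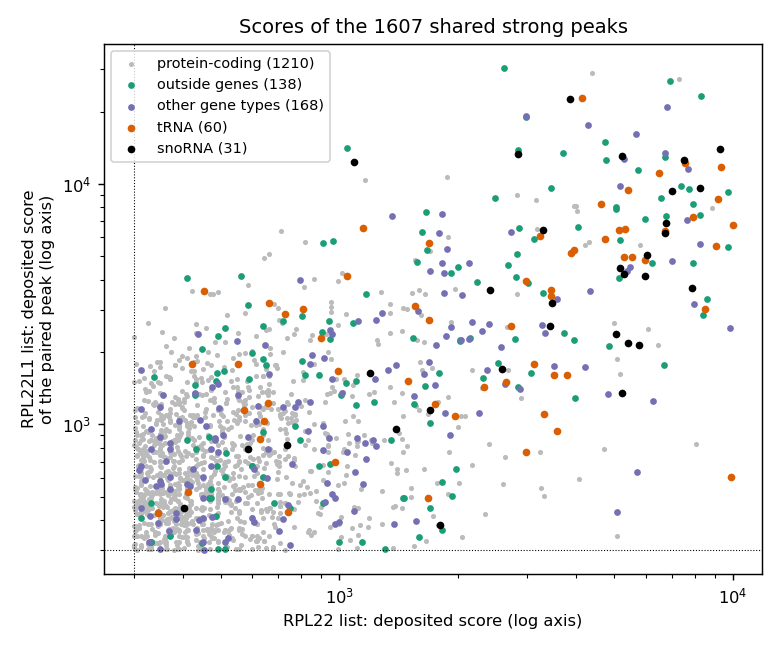
Deposited score in the RPL22 list (x, log axis) and of the paired peak in the RPL22L1 list (y, log axis) for the 1607 shared strong peaks, coloured by the type of gene at the summit; dotted lines mark the score of 300. Protein-coding members crowd below 1000, while tRNA and snoRNA members reach above 3000 in both lists.

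Most members lay in protein-coding genes, but small RNA genes held a larger share of them than of the strong peaks that were not shared. Where genes overlap, the shortest one around a summit was taken. Protein-coding genes held 1210 members, or 75.3% (73.1 to 77.4%), compared with 84.8% (83.0 to 86.5%) of the strong RPL22 peaks that were not shared and 79.9% of all RPL22 peaks. Another 138 members lay outside genes, 77 in long non-coding RNA (lncRNA) genes, 61 in pseudogenes, 60 in tRNA genes and 31 in small nucleolar RNA (snoRNA) genes. The tRNA genes made up 3.73% (2.86 to 4.78%) of members and the snoRNA genes 1.93% (1.31 to 2.73%), against 0.361% and 0.781% of the peaks that were not shared and 0.0709% and 0.0917% of all RPL22 peaks. Members outside genes made up 8.59% and those in lncRNA genes 4.79%, against 9.68% and 8.61% of all RPL22 peaks. Members in protein-coding genes had a median RPL22 score of 461. It was 840 in lncRNA genes, 977 in pseudogenes, 2977.5 in tRNA genes and 5038 in snoRNA genes.

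The share of strong RPL22 peaks that was shared differed between gene types. In tRNA genes 60 of 66 strong RPL22 peaks were shared, or 90.9% (81.3 to 96.6%). In snoRNA genes it was 31 of 44, or 70.5% (54.8 to 83.2%), and outside genes 138 of 234, or 58.97% (52.4 to 65.3%). In protein-coding genes 1210 of 2621 were shared, or 46.2% (44.2 to 48.1%), and this interval overlaps none of the other 3. The tRNA share also lay above the protein-coding one within score classes. With scores from 300 to below 1000, 17 of 22 peaks in tRNA genes and 44.7% of 2397 in protein-coding genes were shared, with intervals of 54.6 to 92.2% and 42.7 to 46.7%. From 1000 to below 3000 it was 14 of 15 against 59.9% (52.6 to 66.9%), and at 3000 or more it was 29 of 29 against 71.9% (53.3 to 86.3%). The snoRNA share did not stand above the protein-coding one in the lower classes, at 3 of 10 and 8 of 14, and reached 20 of 20 only in the highest. Outside genes the share did not stand above the protein-coding one at scores below 1000. It was 33.3% against 39.8% from 300 to below 500, and 55.9% against 57.4% from 500 to below 1000. From 1000 to below 3000 it was 71.2% (58.7 to 81.7%) against 59.9%, and at 3000 or more 87.5% (73.2 to 95.8%) against 71.9%. The intervals outside genes overlapped the protein-coding ones in every class.

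**Figure D2:**
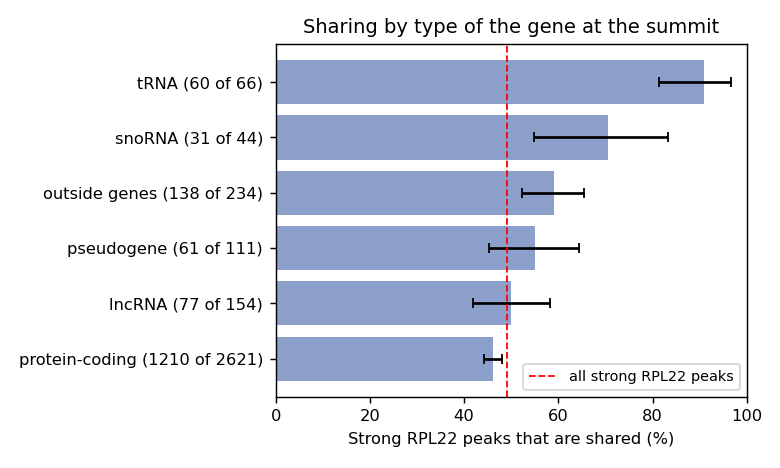
Percentage of strong RPL22 peaks that are shared with a strong RPL22L1 peak (x), by type of the gene at the summit (y), with exact 95% intervals as black bars and the share over all strong RPL22 peaks as a dashed line. Peaks in tRNA genes stand highest at 90.9%, and of the 6 types drawn protein-coding genes lie lowest at 46.2%.

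Members in tRNA genes came from many amino acid families. The 60 members were assigned to 60 different genes, with scores from 346 to 9981. Many tRNA genes have near-identical copies, and the treatment of reads with several matches is not given in the sources used here. The copies named and the number of separate genes are therefore uncertain. Lysine tRNA genes held 12, with a median score of 1384.5. Glycine genes held 6, threonine and valine genes 5 each, and alanine, glutamine and serine genes 4 each. Of the 10 members with the highest RPL22 scores, 5 lay in tRNA genes. These were TRT-AGT1-1 with a score of 9981 at chr17:8187208-8187249, TRQ-CTG5-1 with 9915, TRV-TAC2-1 with 9314, TRG-CCC2-2 with 9154 and TRY-GTA3-1 with 9037. TRV-TAC2-1, a valine tRNA gene, had the same start, end and summit in both lists at chr11:59550984-59551026. Other tRNA members had summits far apart, among them 2 in glutamine tRNA genes. In TRQ-CTG5-1 the summits lay 89 bases apart, and in TRQ-CTG6-1 the peaks shared 3 bases with summits 98 bases apart. Peaks were often longer than the gene, since 55 of 60 reached past at least 1 of its ends. The summit lay within 20 bases of a gene end in 48 of 60, or 80.0% (67.7 to 89.2%), in a zone that makes up 53.3% of the bases of these genes.

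The neighbourhood of tRNA genes also held many of the members outside genes. Of the 138, 47 had their summit within 50 bases of a small RNA gene, and all 47 were tRNA genes. In 33 of them the distance was 5 bases or less. Among strong RPL22 peaks outside genes that were not shared, 7 of 96 lay so close, or 7.29% (2.98 to 14.4%), against 34.1% (26.2 to 42.6%) of members. Together 107 members, or 6.66% of all, lay in a tRNA gene or, outside genes, within 50 bases of one. Members assigned to genes of other types were not measured against tRNA genes, so 107 is a lower bound. The highest of the members beside tRNA genes lay 3 bases from TRX-CAT1-6 at chr6:27592806-27592835, with a score of 9721 and the same summit in both lists. Another lay 10 bases from TRC-GCA17-1 at chr7:149691164-149691195, with 9718.

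The other 91 members outside genes were mostly narrow. Their median distance to the nearest gene was 10237 bases, but some lay close to one, as at 9 bases from FOXB2. Of the 91, 56 were 30 to 32 bases wide, or 61.5% (50.8 to 71.6%), against 10.8% (9.13 to 12.7%) of members in protein-coding genes. Widths among the 91 reached 175 bases. Members in snoRNA and lncRNA genes were also narrow, with median widths of 35 and 38 bases. Both lists gave the same summit in 40 of 91. Some had high scores in the RPL22L1 list. The peak at chr6:43465906-43465935 scored 23191 there and 8281 in the RPL22 list, with the same bases and summit. The peak at chrX:136571708-136571737 scored 26784 there and 6941 in the RPL22 list, and the peak at chr2:60329680-60329709 scored 19022 and 2972. The member with the highest RPL22L1 score, 30389, was also of this kind, at chr15:45228709-45228738, with an RPL22 score of 2623.

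The snoRNA members came from both main classes, which were told apart by gene symbol. Of 31, 16 lay in box H/ACA genes, whose RNAs mostly direct pseudouridylation. Another 13 lay in box C/D genes, whose RNAs mostly direct ribose methylation. SNORA20B had the highest RPL22 score of the snoRNA members, 9292, and an RPL22L1 score of 13987 with the same summit. SNORA56, SNORD50B, SNORA58B and SNORD70B followed with RPL22 scores of 8257, 7882, 7535 and 6987. SNORD12C had an RPL22 score of 3862 and an RPL22L1 score of 22559, where it was the highest of the snoRNA members. In 21 of 31 the summits lay within 2 bases of each other. SNORD97 differed most, with summits 95 bases apart.

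Other structured RNAs appeared singly. Members lay in RMRP, the RNA of RNase MRP, with an RPL22 score of 7645 and an RPL22L1 score of 7071, and in RPPH1, the RNA of RNase P, with 440 and 401. RN7SL1, the RNA of the signal recognition particle, had 5469 and 4505, and the 5S rRNA gene RNA5S9 had 1117 and 2698. Small Cajal body RNA genes held 3 members, in SCARNA15, SCARNA7 and SCARNA2, of which SCARNA7 had an RPL22L1 score of 20840, and vault RNA genes held 2, in VTRNA2-1 and VTRNA1-3. All 5 strong RPL22 peaks in small nuclear RNA (snRNA) genes were shared, a count too small to set apart, since its interval runs from 47.8 to 100%. The highest was RNVU1-6, a variant U1 gene, with 9835. Of the 61 members in pseudogenes and the 11 in transcribed pseudogenes, 23 lay in snRNA copies, 11 in 7SL or 7SK copies and 4 in Y RNA copies. Copies of such genes are nearly identical, and the treatment of reads with several matches is not given in the sources used here, so the copy named is uncertain.

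Summits of the shared peaks lay close to each other. The median distance was 4 bases (3 to 4, exact interval of the median). The same base was the summit in both lists in 277 members, or 17.2% (15.4 to 19.2%), and 72.3% (70.1 to 74.5%) lay within 10 bases. The farthest pair was 189 bases apart. Overlap bounds the distance between summits, and the rule used both scores and the overlap, so these distances are a description. For comparison, 2065 overlapping pairs with scores of at least 100 and below 300 in both lists had a median distance of 13 bases (12 to 14), and 4.84% (3.96 to 5.86%) had the same summit. The difference was present at like widths of the RPL22 peak, while the width of the RPL22L1 peak was not matched. Among peaks 30 to 39 bases wide the medians were 1 and 9 bases, among those of 40 to 59 bases 4 and 13, and among those of 60 to 99 bases 7 and 17. The distance was 5 bases in protein-coding genes, 2 in tRNA genes, and 1 in snoRNA genes and outside genes.

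**Figure D3:**
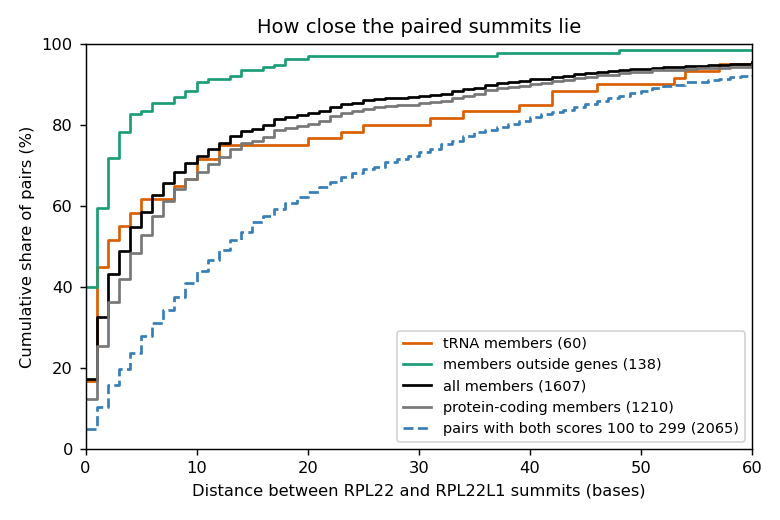
Cumulative percentage of pairs (y) by the distance in bases between the RPL22 and the RPL22L1 summit (x), for all 1607 shared strong peaks, for 3 classes of them, and for 2065 overlapping pairs with scores of at least 100 and below 300 in both lists (dashed). The dashed curve lies below the others up to 50 bases, and members outside genes rise fastest.

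The outlines of the paired peaks varied. Members were 30 to 320 bases wide with a median of 52, and the paired RPL22L1 peaks had a median of 57. The median overlap was 40 bases. Start and end were both the same in 113 pairs, or 7.03% (5.83 to 8.39%), of which 59 were 30 bases wide, the smallest width in the lists. The start was the same in 20.4% of pairs and the end in 18.5%. The RPL22L1 peak was wider in 844 pairs, or 52.5% (50.04 to 55.0%), and narrower in 620, or 38.6%. The RPL22L1 peak held the whole member in 42.9% of pairs. The widest member, in ISYNA1 at chr19:18436354-18436673, spanned 320 bases with an RPL22 score of 547, and its RPL22L1 partner spanned 49. The next widest, in MRPS21, spanned 281 bases. Those in TTC19, FKBP14 and EPRS1 spanned 239, 229 and 212, as did 212 bases in MRPL24.

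Where summits differed in protein-coding genes, the RPL22L1 summit lay somewhat more often downstream. Strand was known for 1030 of the 1210 members. The RPL22L1 summit was downstream, towards the gene end, in 512 and upstream in 391, so that 56.7% (53.4 to 59.96%) of those with different summits pointed downstream. Among the pairs with scores of at least 100 and below 300 it was 778 of 1518, or 51.3% (48.7 to 53.8%), and these intervals overlap. The median signed distance was 0 bases in both sets.

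Along protein-coding genes, the share of members at the far end lay near that of all RPL22 peaks, while it was higher among strong peaks that were not shared. The last 10% of the gene length held 156 of 1030 members, or 15.1% (13.01 to 17.48%), compared with 231 of 1170, or 19.7% (17.498 to 22.1%), of those that were not shared. Over all RPL22 peaks it was 15.04%, and 17.6% over those with scores of at least 100 and below 300. No test was run. The first 10% of the length held 10% and 10.9%, with intervals of 8.24 to 12.0% and 9.13 to 12.8%. Within 200 bases of the gene start lay 31 members, or 3.01% (2.05 to 4.24%), against 4.44% (3.34 to 5.79%) of the peaks that were not shared and 1.54% (1.46 to 1.62%) of all RPL22 peaks. Besides those printed above, these included EIF4G2 with 2889, LDHB with 2395, ENO1 with 2172 and SRSF1 with 990. EIF4G2 is a translation factor related to eIF4G, LDHB and ENO1 are glycolytic enzymes, and SRSF1 is a splicing factor. Exons and introns were not used here, so whether a member lies in spliced or intronic sequence was not tested.

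**Figure D4:**
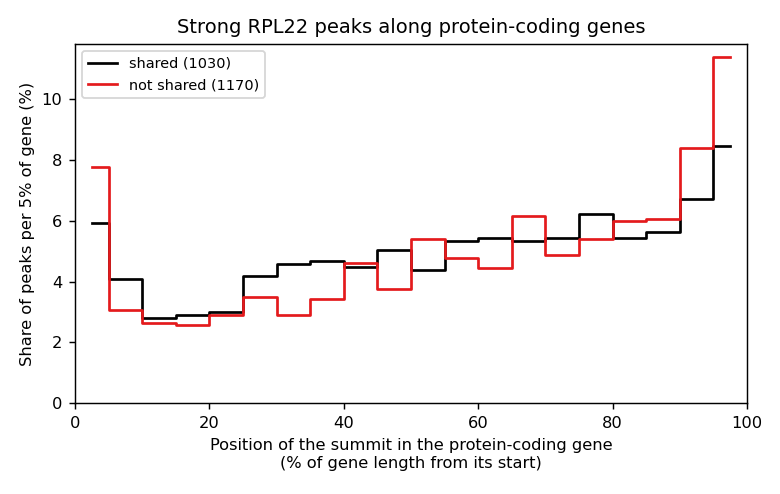
Percentage of strong RPL22 peaks in each 5% of the length of protein-coding genes (y) by position from the gene start (x, % of gene length), for 1030 shared peaks (black) and 1170 that are not shared (red). Both lines rise towards the gene end, and the red line stands higher in the last 5%, at 11.4% against 8.45%.

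Members were spread over many genes. They lay in 1236 genes, of which 1064 held 1 member, 132 held 2, 29 held 3, 6 held 4 and 5 held more. Of 13312 protein-coding genes with any RPL22 summit, 984 held a member, or 7.39%, and of 1964 with a strong RPL22 peak it was 50.1%. Only 96 members lay within 1000 bases of another one, in 46 clusters. The largest cluster held 4 members in 2160 bases of HNRNPA2B1. The next 2 clusters, of 3 members each, lay at tRNA genes on chromosome 17, around TRL-TAG1-1 and around TRG-TCC3-1 with LINC00324.

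The genes that follow were picked for their many members, so a high shared part of their strong RPL22 peaks follows partly from that choice. Over all strong RPL22 peaks in protein-coding genes 46.2% were shared. Strong RPL22L1 peaks numbered 35 in FAT1, 16 in HNRNPA2B1, 11 in XRCC5, 28 in USP34 and 14 in PRKDC. FAT1 had most members, 7 of its 10 strong RPL22 peaks, at the score minimum of 300. With a minimum of 500 it held 4 and HNRNPA2B1 5, and with RPL22L1 peaks taken by rank it held 3 and XRCC5 4. It was level with HNRNPA2B1 and XRCC5 at 5 when 50% of both peaks had to overlap, and with USP34 at 10 with a minimum of 200. It encodes an atypical cadherin and spans 138903 bases on chromosome 4. The RPL22 scores of its members were 601, 303, 1448, 360, 1029, 666 and 1039 in order of position. The paired RPL22L1 scores were 412, 612, 1084, 730, 786, 2073 and 617. Summits were 0 to 3 bases apart in all 7. The highest RPL22 member, at chr4:186617727-186617762, had the same summit in both lists, and the highest RPL22L1 partner lay at another member.

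HNRNPA2B1 encodes an hnRNP protein that binds pre-mRNA and spans 10820 bases on chromosome 7. All 6 of its strong RPL22 peaks were members, although the whole gene held 8 RPL22 peaks. The highest had an RPL22 score of 3937 and an RPL22L1 score of 8087, at chr7:26190353-26190457, 491 bases from the gene end. Those in between scored 545, 1600, 1616 and 355, and the last, 61 bases from the gene start, scored 551. Summits were 0 to 2 bases apart in the 4 members nearest to the gene end and 20 and 13 bases apart in the other two.

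XRCC5, USP34 and PRKDC followed. XRCC5 encodes the Ku80 subunit that binds DNA ends, and all 6 of its strong RPL22 peaks were shared, with RPL22 scores from 317 to 655 and summits 1 to 43 bases apart. PRKDC encodes the kinase that Ku recruits, and all 5 of its strong RPL22 peaks were shared, with scores from 313 to 639. Its summits were 6 to 82 bases apart. USP34, a deubiquitinase gene of 283625 bases, held 6 members of 8 strong RPL22 peaks. Its scores ran from 327 to 599, and 2 of its members met the same RPL22L1 peak.

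Genes with 4 members each followed. In ARHGAP29 one of the members had an RPL22 score of 3153 and an RPL22L1 score of 8586 with the same summit. Its other members scored 467, 358 and 820. CLTC encodes the heavy chain of clathrin, and its member near the gene end scored 2630 and 734, with summits 102 bases apart. LDHB, lactate dehydrogenase B, had its highest member 83 bases from the gene start. HELLS, a chromatin remodeller, had summits 1 to 9 bases apart. SEPTIN2, a cytoskeletal GTPase, had all 4 of its strong RPL22 peaks shared.

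Members with the highest scores in protein-coding genes lay elsewhere. ELF1, a transcription factor gene, held the highest RPL22 score among them, 8850 at chr13:41060721-41060800, with 7938 in the RPL22L1 list and summits 2 bases apart. VMP1, which encodes an endoplasmic reticulum protein needed for autophagy, held a peak at chr17:59839806-59839837 with scores of 7302 and 27319. The ZNF610 peak scored 4384 and 28900 and had the same 30 bases in both lists. HNRNPH1, an hnRNP gene, held a member with an RPL22 score of 6102 at chr5:179615377-179615415.

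Gene lists by function were compared next. Shares with a member are given over all genes of a list and also over its genes with any RPL22 summit, and only the second is set beside the 7.39% of protein-coding genes with such a summit. Among SR and hnRNP genes, which encode regulators of splicing, 15 of 40 held a member, or 37.5% (22.7 to 54.2%), and 29 of their 40 strong RPL22 peaks were shared. That is 72.5% (56.1 to 85.4%), above the 46.2% of all protein-coding strong peaks. These 40 peaks lay in 17 genes, and peaks of the same gene were counted separately. The list was not compared within score classes, and sharing was more frequent at higher scores. HNRNPA2B1 held 6, HNRNPH1 and HNRNPH3 held 3 each, and SRSF7 held 2 with RPL22 scores of 2033 and 657. The median RPL22 score of the 29 was 605, beside 461 for all protein-coding members. Of the 34 genes of the list with any RPL22 summit the 15 make up 44.1%.

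Genes of the ribosome, of its assembly and of translation came next. Of 91 cytosolic ribosomal protein genes 17 held a member, or 18.7% (11.3 to 28.2%), and 27.9% of those with an RPL22 summit. Of their strong RPL22 peaks 22 of 44 were shared, or 50% (34.6 to 65.4%), an interval that holds the 46.2% of all protein-coding strong peaks. RPL22L1 held 3, and RPS19, RPLP0 and RPL6 held 2 each. RPS6 had the highest score, 5091, followed by RPL8 with 3303. Translation factor genes held a member in 10 of 70, or 16.4% of those with a summit, with EIF4G2 at 3 and EIF3E at 2, and 13 of 26 strong peaks were shared. Mitochondrial ribosomal protein genes held a member in 6 of 77, or 9.09% of those with a summit, with 8 of 12 strong peaks shared (34.9 to 90.1%), among them MRPS21 with 2 members of RPL22 scores 1722 and 636. Genes of the nucleolus and ribosome assembly held a member in 6 of 30, or 24% of those with a summit, and 7 of 10 strong peaks were shared (34.8 to 93.3%). NOP58, a core protein of box C/D snoRNPs, had the highest with 4700, and UTP4 held 2.

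Chaperone genes held a member in 14 of 73, or 19.2% (10.9 to 30.1%), and 24.6% of those with a summit, with 20 of 32 strong RPL22 peaks shared (43.7 to 78.9%). Subunits of the chaperonin CCT, which folds actin and tubulin, made up 7 of the 14. CCT6A held 3, CCT3 and CCT8 held 2 each, and CCT2, CCT4, CCT5 and CCT7 held 1 each. HSP90AA1, an HSP90 gene, held 2 with RPL22 scores of 1476 and 1678. Tubulin and actin genes held a member in 3 of 21, or 20% of those with a summit, in TUBB4B, ACTG1 and TUBB2A. Of their strong RPL22 peaks 3 of 7 were shared (9.90 to 81.6%).

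Among the remaining lists, DEAD and DEAH helicase genes held a member in 7 of 53, or 15.6% of those with a summit, with 3 in DDX46. Spliceosome genes held one in 3 of 36, or 9.09% of those with a summit, in PRPF39, SF3B1 and SF3B2. Strong peaks were shared in 11 of 18 in the helicase genes and in 5 of 10 in the spliceosome genes. Histone genes held one in 9 of 94, or 27.3% of those with a summit, with 10 of 18 strong peaks shared, led by H3C10 with 1342 and H4C3 with 1074, and H1-2 held 2. Zinc finger genes of the ZNF series held one in 11 of 517, or 2.13% (1.07 to 3.78%), and 2.99% of those with a summit. Of their strong RPL22 peaks 11 of 24 were shared, or 45.8% (25.6 to 67.2%), beside 46.2% in all protein-coding genes. None of 19 genes of p53 and its targets held a member, with an exact upper bound of 17.6%, and 3 strong RPL22 peaks lay in them. SNHG3 was the one small nucleolar RNA host gene of 30 with a member assigned to it, at 2300 and 2448 with the same summit. Ribosomal protein, histone and zinc finger genes have near-identical copies, so the gene named there is uncertain.

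**Figure D5:**
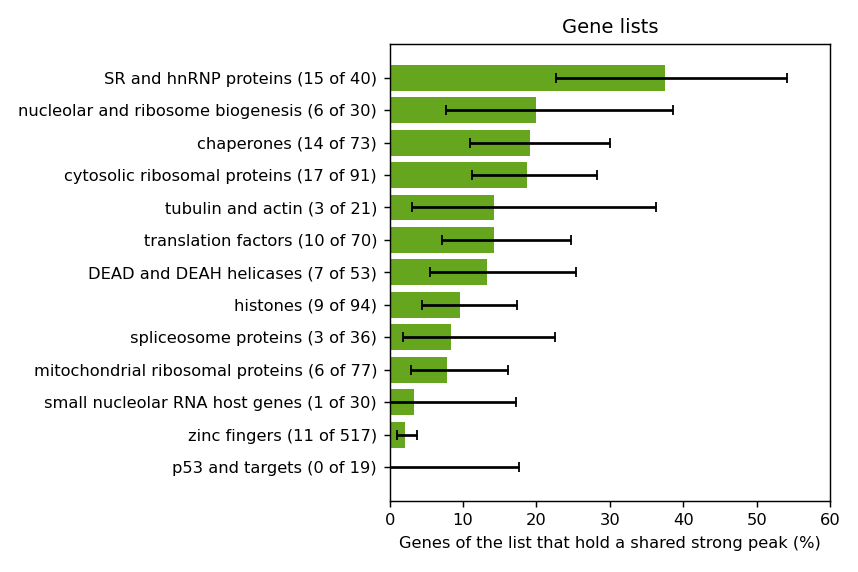
Percentage of the genes of each list that hold a shared strong peak (x), with the counts beside the list names (y) and exact 95% intervals as black bars. SR and hnRNP genes stand highest at 37.5%, and the p53 list is at 0 of 19.

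The genes of the tagged proteins and of other RNAs of interest were examined. RPL22L1 held 3 strong RPL22 peaks, all of which were members, with RPL22 scores of 411, 470 and 477. They met 2 strong RPL22L1 peaks with scores of 1886 and 3474, and the peak with 3474 met 2 of them. RPL22 itself held no strong RPL22 peak and so no member, while 2 strong RPL22L1 peaks lay in it. MDM4, which encodes an inhibitor of p53, held 2 strong peaks in each list and no member. MALAT1 and NEAT1, abundant nuclear lncRNAs, held 1 member each. The one in MALAT1 had an RPL22 score of 2984 and an RPL22L1 score of 19163, and was assigned to the shorter antisense gene TALAM1. The one in NEAT1 scored 5077 and 433. UBAP2L held 1, which lay in SNORA58B within its bounds.

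Markers of cell type were counted as a check of the label. Of 13 markers of colon epithelium 9 held an RPL22 peak of any score, 54 peaks in all, and 9 held an RPL22L1 peak, 83 in all. EPCAM, KRT8 and CLDN4 held members, with top RPL22 scores of 638, 1086 and 470. KRT20, CDX1, LGR5 and CEACAM5 had no peak in either list. Of 5 leukocyte markers LYZ alone held an RPL22 peak, and of 6 fibroblast and endothelial markers COL1A1, PECAM1 and VWF did, with 19 peaks in all. None of these 11 held a member. A peak count depends on gene length and is no level of expression.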

How the data were processed

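The 2 deposited peak lists of the tagged proteins were used, 1 library each. Per the submitters' processing notes cutadapt 4.8, STAR 2.7.10a, UMI-tools 1.1.5, MACS3 3.0.0a6 and build hg38 were named, with no role given. The lists hold, as deposited, a whole-number score per peak, the authors' own value, and the offset of the summit in bases. The score's scale, the number of reads and the control are not given in the sources used here, so depth is unknown. Strand is not given in the lists. It was taken from the RefSeq promoter table, which lacks some genes.

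Peaks were joined by at least 1 shared base, and a member met by several RPL22L1 peaks was paired with the one of highest score. Summits were assigned to the shortest gene among 59098 of the RefSeq table (GRCh38.p14). Coordinates count from 1. Shares carry exact Clopper-Pearson 95% intervals and medians exact order-statistic intervals, both for counting error only. With 1 library per group no test was run. Members, gene lists and the rule for named genes were chosen with earlier results of these data known. Named genes were the 10 with most members (SEPTIN2, tied at 4, was added), those of the 10 highest members in each list, 6 genes of interest, members at the score limits, up to 4 genes per list, the 5 widest members and the largest clusters. Other genes named were chosen after their values were seen. A gene that the rule names is not reported here.

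Intervals came from scipy 1.17.1, tables from pandas 2.3.3 and numpy 2.4.6 and plots from matplotlib 3.10.9, under Python 3.11.15. On simulated data 400 of 400 planted overlaps were found among 3271 peaks, with 0 false ones. The other peaks had been moved to positions without any RPL22L1 peak, so the 0 was set by construction. The check covers only whether overlaps are counted as the rule says. Alternatives changed the score minimum, the overlap, flat peaks, the upper limit, the choice of RPL22L1 peaks by rank, merging and the gene assignment.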

Additional observations from a re-analysis of the deposited data

How the results depend on the processing

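Raising the score minimum to 500 gave 683 shared peaks in 537 genes, 51.2% of strong RPL22 peaks, with 58.3% in protein-coding genes, a median summit distance of 2 bases, a median width of 44 and 65 members in the gene lists. A minimum of 200 gave 3166 in 2235 genes, 45.9%, 83.3%, 6 bases, 54 and 241. RPL22L1 peaks chosen by rank gave 818 in 640 genes, 25.01%, 63.7%, 2 bases and 78 in the lists. Requiring 50% overlap on each side gave 37.1% shared, 71.3% in protein-coding genes and 86 in the lists. Summits within 10 bases gave 35.6%, 71.1%, a median width of 45 and, by construction, a short distance of 2 bases. Without an upper limit on the score 51.0% were shared and 70.4% lay in protein-coding genes, and with every gene counted 81.3% did. The cause was not tested beyond what the settings do by construction. The other 30 values stayed within their interval or within 1.5 times, among them the share in the last 10% of gene length. Of 97 values for single genes and for tRNA genes, 70 stayed, 25 were lower and 2 higher. The tRNA share fell to 65.2% with summits within 10 bases, 72.7% with 50% overlap and 80.3% by rank. USP34 and PRKDC held 0 members at a minimum of 500. The settings for the last 10% of gene length, for tRNA genes and for single genes were chosen after seeing the data. No paired analysis was possible because each group had 1 library and the labels give no replicate numbers. The unknown depth limits what an absent partner peak can show.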

Other observations

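Across all shared strong peaks the RPL22 and the RPL22L1 scores had a Spearman correlation of 0.46, given as a description since the peaks share their libraries and peak calling. It was 0.25 over the 1210 members in protein-coding genes and 0.63 over the 60 in tRNA genes. Among chromosomes the share of strong RPL22 peaks that were shared was lowest on chromosome 19, at 59 of 158 or 37.3% (29.8 to 45.4%). It was highest on chromosome 21, at 18 of 28 or 64.3% (44.1 to 81.4%). Chromosome 6, which holds the large tRNA and histone gene cluster, had 128 of 216 or 59.3% (52.4 to 65.9%), and chromosome 2 had 132 of 230 or 57.4% (50.7 to 63.9%). Among strong RPL22 peaks with scores from 300 to below 500, the share was 33.3% (29.3 to 37.6%) at widths of 30 to 39 bases and 49.8% (43.4 to 56.2%) at 100 bases or more.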
